A study of Mus musculus with 12 samples.

Results

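The 47 genes described here copy DNA in S phase or prepare the cell for it. They were chosen by name. They cover Orc1 and Orc6 of the origin recognition complex, the MCM helicase and its activators, and the clamp and its loader. Also covered are some subunits of the replicative polymerases, primase, the enzymes that finish Okazaki fragments, and single-strand binding proteins. Enzymes of nucleotide supply, chromatin factors of S phase, and the cyclins E and E2F factors that start the phase complete the set. All 47 were found by Ensembl identifier among the 56941 gene identifiers of the count tables, and all 47 had enough counts to be tested in each comparison.

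RNA sequencing was performed on bone marrow-derived macrophages of C57BL/6J mice, wild type (WT) or with a deletion of the microRNA miR-210 (KO). The WT M0 group and the KO M0 group are macrophages grown for 7 days from isolated monocytes in medium with 20% serum and 30% L929-conditioned medium, a source of the growth factor M-CSF. Per the study's methods, these control wells were then kept in the same conditions as the treated wells, but without IL-4. The WT M2 and KO M2 groups are the same cells exposed to interleukin 4 (IL-4) at 20 ng/mL for 72 hours, which polarizes macrophages to the M2-like state. Each of the 4 groups has 3 libraries. The deletion was first made with a Gata-1 Cre acting on a floxed miR-210 allele, and KO and WT mice were bred from heterozygous parents, so the deletion is carried by the animal and not by macrophages alone. Macrophages of all 4 groups were grown from monocytes purified by removing other cells, and the growth factor comes from a conditioned medium of undefined content.

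Replication proceeds in steps. In G1 the origin recognition complex, Cdc6 and Cdt1 load the MCM helicase onto DNA, cyclin E with its kinase and the E2F factors drive entry into S phase, and Cdc45 and the GINS complex then turn the loaded helicase into the active CMG form. Polymerase alpha with primase starts each strand, the clamp PCNA keeps polymerases delta and epsilon on the template, and Fen1 and Lig1 join the lagging-strand pieces. Macrophages grown with M-CSF divide in culture, and many genes of this set are known targets of E2F factors, which bind promoters through short GC-rich sites.

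Those sites were looked for because the genes are known to be co-regulated. Among 39 members with a promoter window in the RefSeq table (build GRCm38.p6), the 250 bases before the start held one of the E2F letters TTTCCCGC, TTTCGCGC, TTTGCCGC or TTTGGCGC, on either strand, in 9 genes, or 23.1%, against 2.16% of all 27025 genes of the table. Overlapping matches were counted once per gene. The NF-Y letters CCAAT, on either strand, occurred in 24 of the 39 (61.5%), against 37.5% of all genes. The 9 genes with E2F letters were Mcm5, Mcm6, Mcm7, Orc1, Cdc6, Gins3, Rfc3, Pola1 and Uhrf1. A match is a string of letters in the reference and not a measured binding site. Stretches of 40 bases around the match are shown for the 6 of these genes with the smallest p-values between M2 and M0 in KO cells, on the strand of the gene, with the matched letters in capitals.
Mcm6: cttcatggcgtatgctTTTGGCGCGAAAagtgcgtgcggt
Mcm5: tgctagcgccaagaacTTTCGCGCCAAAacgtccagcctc
Uhrf1: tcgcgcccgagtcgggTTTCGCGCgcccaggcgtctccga
Cdc6: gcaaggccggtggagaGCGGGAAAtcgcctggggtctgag
Orc1: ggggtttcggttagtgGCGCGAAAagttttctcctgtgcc
Mcm7: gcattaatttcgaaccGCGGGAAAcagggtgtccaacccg
In the order shown, they lie at chr1:128359792-128359831 (minus strand), chr8:75109340-75109379 (plus), chr17:56304112-56304151 (plus), chr11:98907997-98908036 (plus), chr4:108579411-108579450 (plus) and chr5:138172025-138172064 (minus) of GRCm38.p6, between 201 and 4 bases before the start. In Mcm6 and Mcm5 the capitals mark 2 matches, 1 on each strand, that overlap.

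Library totals ran from 7930525 to 10167695 counts, and levels are given as counts scaled to a library total of 1000000 (CPM). Mir210 itself had 1, 3 and 5 counts in WT M0, 1, 2 and 1 in WT M2, and 0 in each KO library, where a count of 0 allows up to 3 counts of the total. Retnla, an M2 marker, was at 0 CPM in all M0 libraries and between 270 and 479 CPM in M2. The 6 macrophage markers summed to between 3319 and 4009 CPM in every library, but single markers were not constant. With IL-4, 3 were fitted higher and 3 lower in each genotype. Fcgr1 stood at 314 to 581 CPM in M0 and 39.7 to 67.4 CPM in M2, and Mertk at 164 to 212 and 73.9 to 105 CPM. In M0 every KO library was below every WT library for Fcgr1 (314 to 350 against 394 to 581 CPM). For Itgam every one was above (332 to 370 against 237 to 313 CPM). Summed markers of granulocytes, erythroid cells, T and NK cells and mast cells stayed at or below 5.15 CPM, and the B cell list, with Ms4a1 at 0, at or below 10.2 CPM. The dendritic cell list stood at 0.412 to 1.11 CPM in M0 and 10.2 to 17.9 CPM in M2, almost all of it Zbtb46. The stem and progenitor list stood at 0 to 0.398 CPM in M0 and 2.92 to 4.94 CPM in M2, mostly Gata2, and the stromal list at 2.92 to 5.37 CPM in M0 and 0.353 to 2.19 CPM in M2, mostly Acta2. Their part in the differences between M2 and M0 was not tested. The labels give 1 batch name per group, which makes batch inseparable from group, and nothing says which culture or animal a library came from, so p-values measure only the spread between these libraries. In bulk RNA, fewer cycling cells and less of these messages per cycling cell cannot be told apart.

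All 47 genes together summed to 1070, 1284 and 1122 CPM in libraries 1 to 3 of WT M0, and to 1502, 1402 and 1312 CPM in KO M0. They summed to 1396, 1378 and 1322 CPM in WT M2 and to 1326, 1410 and 1428 CPM in KO M2. By this sum the WT M0 libraries were the 3 lowest of the 12, and the other 3 groups overlapped. The sum leans on abundant genes, above all Pcna, at 209 to 395 CPM. The members' median log2 deviation from their mean over the 12 libraries weighs them equally. By it, libraries 1 to 3 stood at -0.34, 0.12 and -0.17 in WT M0 and at 0.34, 0.30 and 0.03 in KO M0. Library 2 of WT M0 thus stood above library 3 of KO M0 and above every M2 library. Per kilobase of merged exons, the mean level over the 12 libraries was highest for Pcna, at 130 CPM per kilobase, followed by Fen1 at 22.6, and lowest for Cdc45 at 0.652 and Orc1 at 0.523. With the length of the longest coding transcript in place of merged exons, those 4 genes kept their places at the ends of the order.

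**Figure D1:**
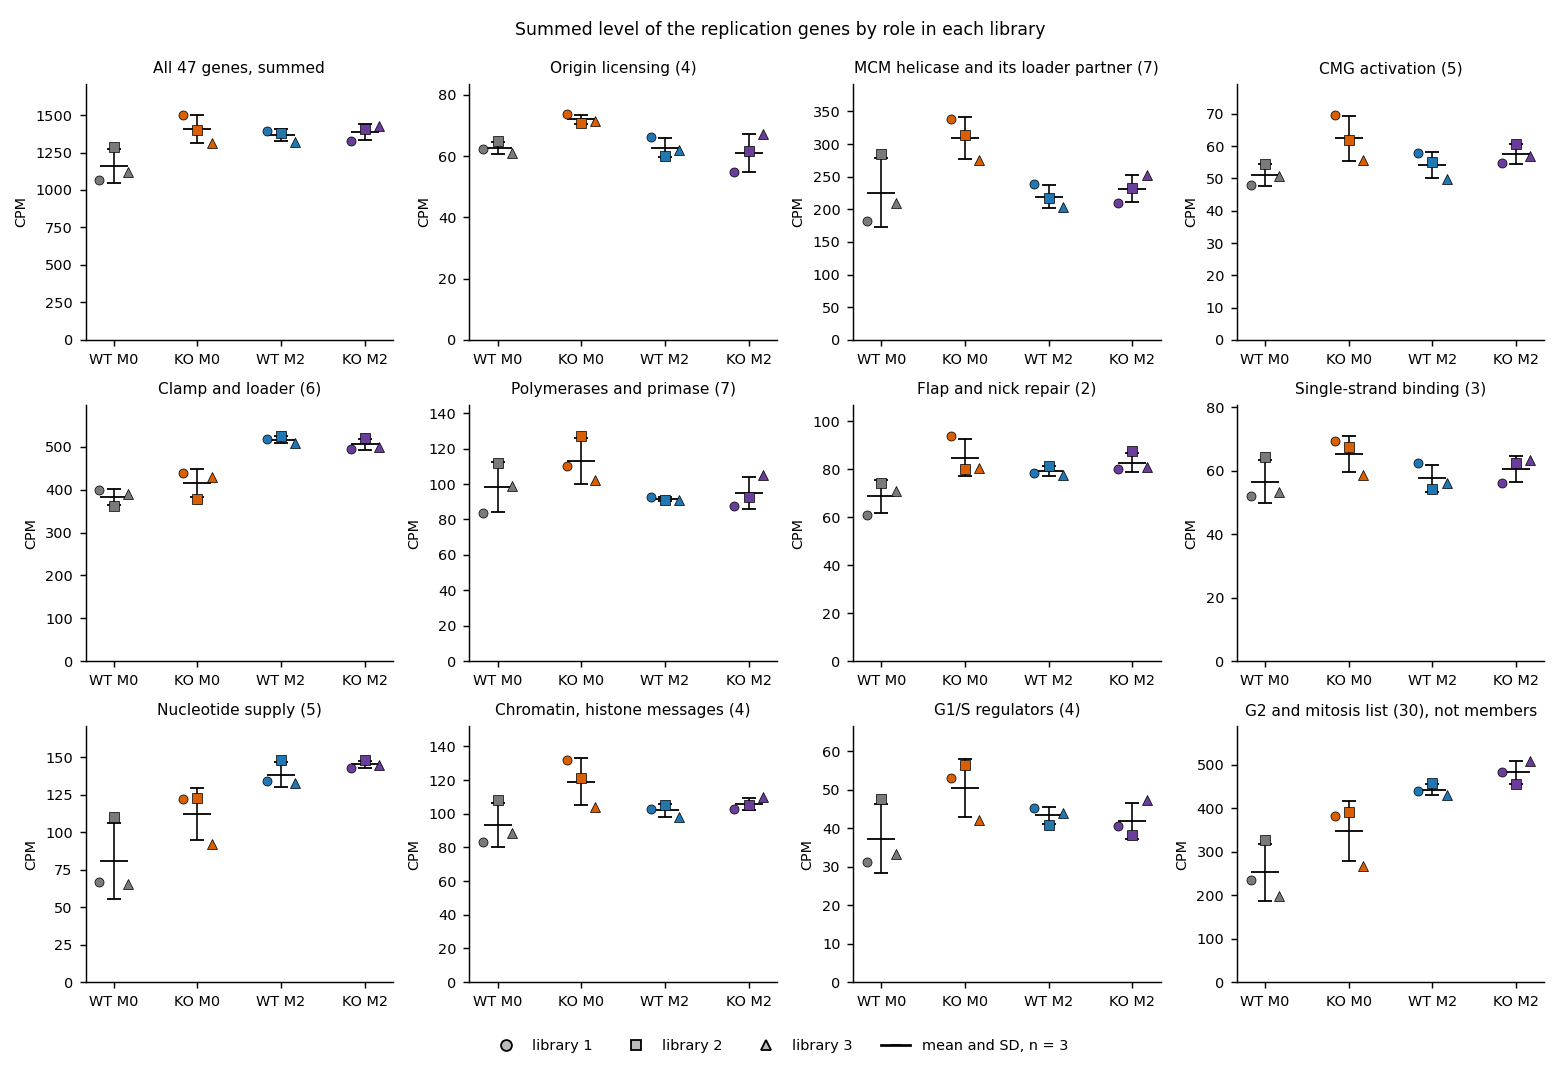
Summed CPM (vertical axis, from 0) of all 47 genes, of each role and of 30 G2 and mitosis genes in the 4 groups; points are libraries 1 to 3, lines the mean and SD (n = 3). The MCM panel shows library 2 of WT M0 at 285 CPM, above libraries 1 and 3 at 182 and 210, while the mitosis panel rises from M0 to M2 in both genotypes.

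The spread within WT M0 was unequal. Library 2 of WT M0 held the highest value of its group for 36 of the 47 members, or 76.6%, against 37.2% of the 14825 genes tested over all libraries. The median ratio of the highest to the lowest library of WT M0 was 1.46 for the members and 1.21 for all genes, and the median coefficient of variation was 20.5% against 10%. In KO M0, library 3 held the highest value for 1 member only, and that group's median coefficient of variation was 12.8%. In WT M2 and KO M2 it was 9.57% and 9.9%. Values of named genes that rest on WT M0 are therefore also given without its library 2. That library was picked by its high values in these same genes. Leaving it out therefore tends to raise both the difference of KO from WT in M0 and the response to IL-4 in WT. These refits show how far a value depends on 1 library and are not separate support for a difference.

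The first question of the design is what loss of miR-210 does in resting macrophages. In M0, no member passed the test between KO and WT (edgeR quasi-likelihood test, adjusted p below 0.05 and a change of more than 1.2-fold either way), where 0.220% of the 14089 genes tested were called higher in KO and 0.241% lower. The fitted change was nevertheless positive for 44 of the 47, with a median log2 fold change of 0.31, beside 7059 of 14089 and a median of 0 over all genes. An unadjusted p under 0.05 was reached by 15 members, all of them fitted higher in KO, against 10.0% of all genes in either direction. In 8 members each KO library was above each WT library, against 7.13% of all genes, and in none was each KO library below, against 7.30%. DESeq2's Wald test called 2 members higher, Mcm2 and Uhrf1, where it called 1.55% of the 14089 genes in either direction. Without library 2 of WT M0, 13 members were called higher and 0 lower, where 0.989% of 14360 genes were called higher and 1.11% lower, and the median of the members became 0.46. The 13 were Mcm2, Mcm3, Mcm4, Mcm5, Mcm6, Mcm7, Mcm10, Pole, Rrm1, Tk1, Ccne2, E2f2 and Uhrf1. Leaving out any other single library of this comparison gave 0 calls. With every library kept and no filter on low counts, 13 members were also called higher, with Rrm2 in place of Mcm4. That fit called 2.03% of 26255 genes in either direction.

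**Figure D2:**
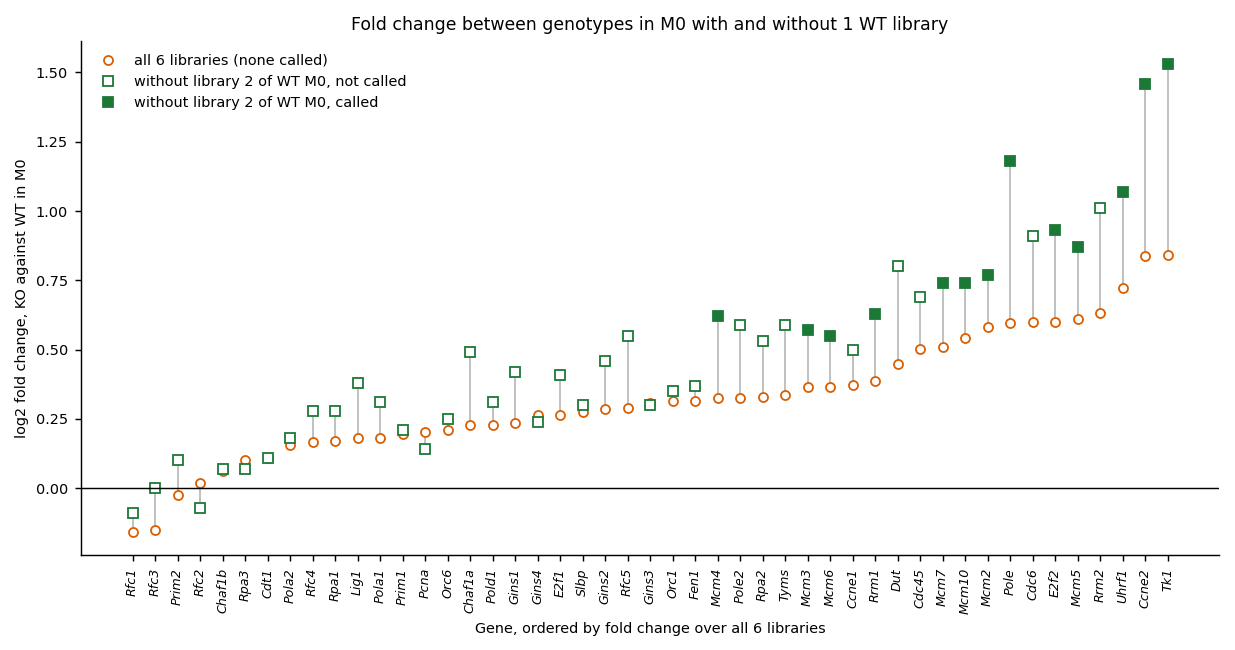
Log2 fold change of KO against WT in M0 (vertical axis) for the 47 genes, ordered by the fit to all 6 libraries (circles) and refitted without library 2 of WT M0 (squares, filled where called). The 13 filled squares run from 0.55 for Mcm6 to 1.53 for Tk1, and no circle is called.

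Other lists were read in the same comparison. Of 30 genes of G2 and mitosis, 29 were fitted higher in KO M0 with a median of 0.39, and 0 were called. Of 50 further replication genes, 43 were fitted higher with a median of 0.18, and of 24 RB and E2F partners 15, with a median of 0.12, again with 0 called in either list. With library 2 of WT M0 left out, 3 of the 30 mitosis genes, 3 of the 50 replication genes and 2 of the 24 partners were called higher, and 1 replication gene lower. Of all genes, 0.989% were called higher there and 1.11% lower. Mitosis genes summed to 234, 326 and 199 CPM in WT M0 and to 381, 392 and 267 CPM in KO M0, so library 2 of WT M0 was also the highest of its group there.

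In M2 the genotypes lay close together. No member was called between KO M2 and WT M2, where 0.408% of 13980 genes were called higher and 0.572% lower. The fit was positive for 32 of 47 with a median log2 fold change of 0.07, and 0 members had an unadjusted p under 0.05, against 10.7% of all genes. DESeq2 called 0 as well. In 1 member, Prim1, every KO library was above every WT library, and in 2, Pola2 and E2f1, every one was below, against 7.52% and 8.52% of all genes. The members ranged from -0.48 for Orc1 to 0.36 for Cdc6.

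The second question is how the set responds to IL-4 in each genotype. In WT cells 6 members rose (Dut, Rfc5, Pcna, Ccne1, Gins3 and Fen1) and 3 fell (Lig1, Rfc1 and Rfc2), where 22.1% of 14266 genes rose and 20.9% fell. In KO cells 3 rose (Dut, Rfc5 and Pcna) and 11 fell (Mcm2, Mcm3, Mcm4, Mcm5, Mcm6, Rfc2, Pola2, Pole, Pold1, Lig1 and Tk1), where 17.4% of 14331 genes rose and 16.4% fell. The median log2 fold change of the members was 0.14 in WT and -0.19 in KO, and of all genes 0 and -0.01. With library 2 of WT M0 left out, 16 members rose and 2 fell in WT, where 22.3% of 14392 genes rose and 20.4% fell. In KO, the count of falls dropped to 6 without library 1 or without library 2 of KO M2. It was 16 without library 3 of KO M0. Of all genes tested in these fits, 27.5%, 28.3% and 30.5% were called in either direction.

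Dut, Rfc5 and Pcna rose in both genotypes, and Rfc2 and Lig1 fell in both. Whether the other calls differ between genotypes is asked by the interaction term, fitted over all 12 libraries. No member passed it, as 0% of the 14825 genes did in this test. At an unadjusted p under 0.05 there were 7 members, all with a more negative response in KO, against 8.95% of all genes. DESeq2 also called 0, with 6 under that unadjusted limit, where it called 0.486% of all genes. The interaction was fitted negative for 39 of the 47, with a median of -0.26. Without library 2 of WT M0 the median was -0.44 and 1 member was called, Tk1, at -1.42 (SE 0.273, adjusted p 0.034, edgeR). In that refit 0.432% of 15059 genes passed. The response of WT, the M0 comparison of genotypes and the interaction share the WT M0 libraries, and the response of KO shares the KO M0 libraries with the last 2 of these, so these fits are not independent of each other.

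**Figure D3:**
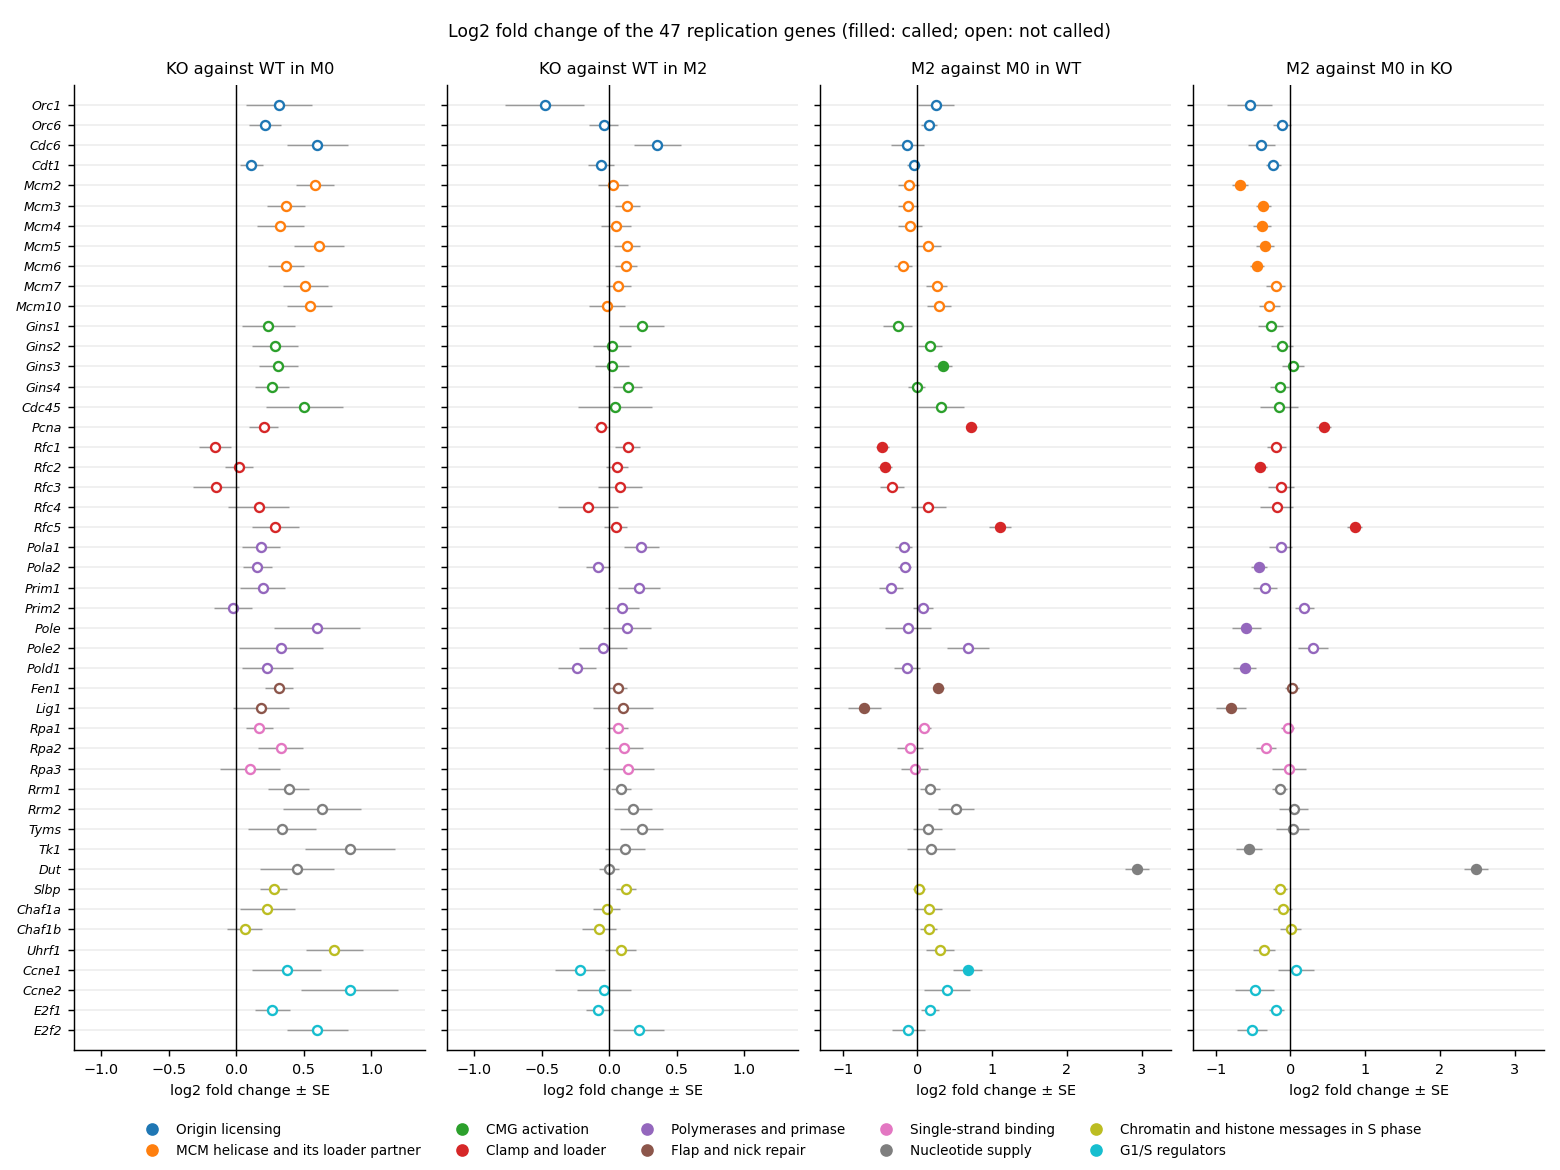
Log2 fold change with its SE (horizontal axis) of each of the 47 genes (rows, grouped and coloured by role) in the 4 comparisons; filled points are called. In KO against WT in M0 44 of the 47 points lie right of 0, and in M2 against M0 the filled MCM points appear in KO, from -0.34 for Mcm5 to -0.68 for Mcm2.

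Of the origin licensing factors, none was called in any comparison by the main test over all libraries. Cdc6, the ATPase that loads MCM together with the origin recognition complex, stood at 4.7, 8.35 and 5.27 CPM in WT M0 and 10.7, 9.21 and 8.15 CPM in KO M0. Its M2 levels were 5.29, 6.2 and 5.19 CPM in WT and 5.99, 8.04 and 7.25 CPM in KO. Library 2 of WT M0 overlapped the KO M0 range, and all KO M2 libraries were below all KO M0 libraries. The fitted log2 fold change of KO against WT was 0.60 (SE 0.227) in M0 and 0.36 (SE 0.172) in M2, with adjusted p of 0.38 and 0.48 (edgeR). The M0 value became 0.91 (SE 0.219, adjusted p 0.054) with library 2 of WT M0 left out. Orc1, the largest subunit of the origin recognition complex, was the least abundant member per length. It stood at 2.79, 2.89 and 2.73 CPM in WT M0, 4.11, 3.7 and 2.68 CPM in KO M0, 4, 3.57 and 2.35 CPM in WT M2, and 1.83, 1.88 and 3.5 CPM in KO M2. Libraries of the 4 groups overlapped, and the interaction was -0.79 (SE 0.394, adjusted p 0.59), or -0.83 (SE 0.428, adjusted p 0.58) without library 2 of WT M0. Orc6 ranged between 13.6 and 16.8 CPM over all 12 libraries, and Cdt1, the helicase-loading partner of Cdc6, between 32.5 and 44.3 CPM.

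The 6 subunits of the replicative helicase, Mcm2 to Mcm7, were fitted in the same direction as each other between the genotypes in M0. Their sum was 173, 272 and 200 CPM in WT M0, 322, 298 and 261 CPM in KO M0, 223, 205 and 190 CPM in WT M2, and 200, 219 and 238 CPM in KO M2. Library 2 of WT M0 lay inside the range of KO M0, while libraries 1 and 3 of WT M0 lay below every KO M0 library. All 6, and the helicase activator Mcm10, were fitted higher in KO M0 than in WT M0, from 0.33 to 0.61. In M2 the same 7 genes lay between -0.02 and 0.13.

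**Figure D4:**
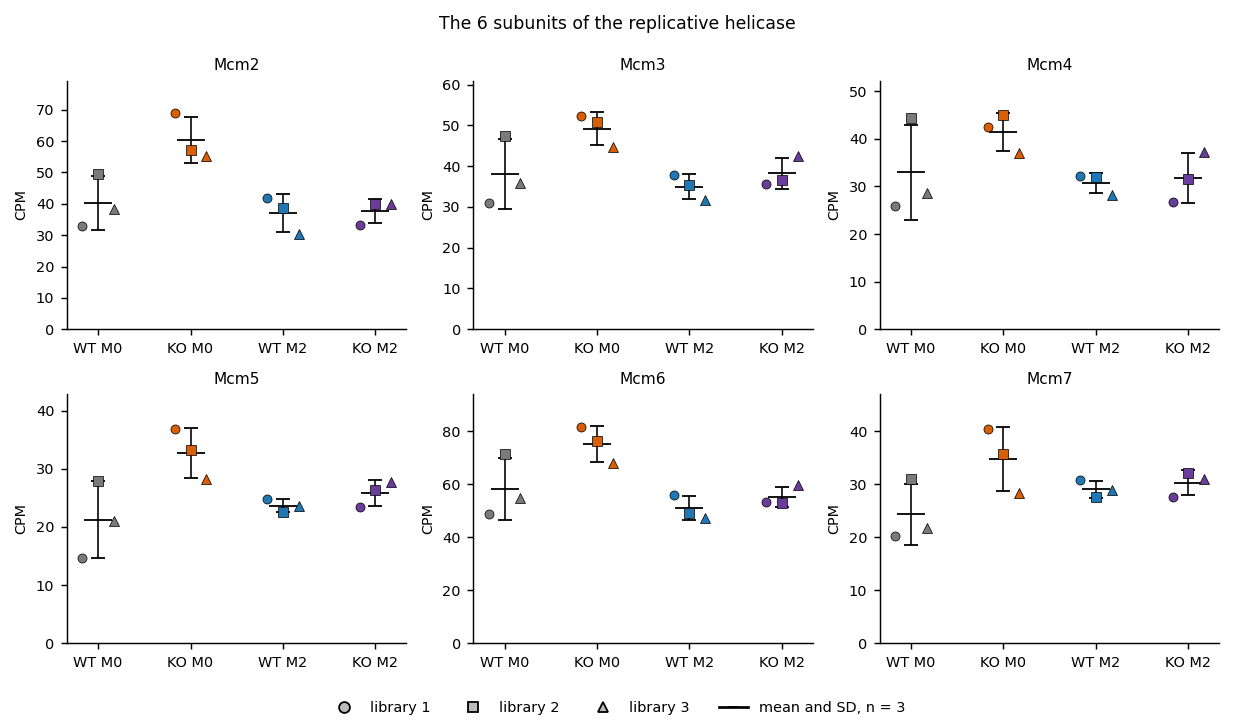
CPM (vertical axis, from 0) of Mcm2 to Mcm7 in the 4 groups; points are libraries 1 to 3 and lines the mean and SD (n = 3). In each panel the KO M0 libraries stand highest on average and library 2 of WT M0 is the highest of its group.

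Mcm2 (chr6:88860452-88875762 of GRCm39, minus strand), the subunit that also carries histones, stood at 32.9, 49.5 and 38.4 CPM in WT M0, 68.9, 57.2 and 55.2 CPM in KO M0, 42, 38.8 and 30.4 CPM in WT M2, and 33.3, 39.9 and 40.1 CPM in KO M2. All KO M0 libraries were above all others. In KO cells Mcm2 fell with IL-4 by 0.68 on the log2 scale (SE 0.111, adjusted p 0.00038, edgeR), a call kept whichever single library was left out. In WT its change was -0.12 (SE 0.144, adjusted p 0.53), and 0.06 without library 2 of WT M0. Between the genotypes in M0 the log2 fold change was 0.58 (SE 0.142, adjusted p 0.12), and 0.77 (SE 0.125, adjusted p 0.0068) without that library.

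Mcm6, with the highest level of the 6 subunits per kilobase of merged exons, stood at 48.7, 71.2 and 54.7 CPM in WT M0 and 81.5, 76.3 and 68.1 CPM in KO M0. In M2 it stood at 56, 49.2 and 47.4 CPM in WT and 53.2, 52.7 and 59.7 CPM in KO. The KO M0 range thus lay above both M2 ranges and took in library 2 of WT M0. Mcm6 fell in KO by 0.45 on the log2 scale (SE 0.0936, adjusted p 0.0023, edgeR), also a call kept in every fit with 1 library left out, and was at -0.19 in WT (adjusted p 0.22). Refitted without library 2 of WT M0, the response in WT was -0.02 (adjusted p 0.86), and Mcm6 was higher in KO M0 than in WT M0 by 0.55 (SE 0.111, adjusted p 0.024). Its promoter stretch with 2 overlapping E2F matches is the first of those printed above.

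Mcm3 stood at 31, 47.5 and 35.8 CPM in WT M0, 52.2, 50.9 and 44.6 CPM in KO M0, 37.8, 35.4 and 31.7 CPM in WT M2, and 35.6, 36.6 and 42.6 CPM in KO M2. Mcm4 stood at 25.8, 44.3 and 28.7 CPM in WT M0, 42.5, 44.9 and 37 CPM in KO M0, 32.1, 31.9 and 28.3 CPM in WT M2, and 26.7, 31.5 and 37.2 CPM in KO M2. Mcm5 stood at 14.7, 28 and 21 CPM in WT M0, 36.9, 33.2 and 28.2 CPM in KO M0, 24.8, 22.5 and 23.7 CPM in WT M2, and 23.4, 26.4 and 27.7 CPM in KO M2. For Mcm3 and Mcm5 the KO M0 and KO M2 libraries did not overlap, while for Mcm4 they met at library 3 of each group. With IL-4 in KO cells Mcm3 fell by 0.36 (SE 0.102, adjusted p 0.014), Mcm4 by 0.38 (SE 0.124, adjusted p 0.03) and Mcm5 by 0.34 (SE 0.117, adjusted p 0.039, edgeR). These 3 calls were lost in some other fits. Without library 1 of KO M2 the adjusted p became 0.08 for Mcm3, 0.15 for Mcm4 and 0.17 for Mcm5, and without library 2 of KO M2 it became 0.056, 0.076 and 0.074. Mcm4 and Mcm5 also lost the call without library 1 of KO M0 (0.053 and 0.12) or library 2 of KO M0 (0.069 and 0.061). With all libraries kept, the Mcm4 call was lost in the joint fit of 12 libraries (0.07), and the Mcm5 call in that fit (0.1), under DESeq2's Wald test (0.067) and with the library number as a replicate block (0.072). In M0, with library 2 of WT M0 left out, KO was higher than WT by 0.57 for Mcm3 (adjusted p 0.024), 0.62 for Mcm4 (adjusted p 0.019) and 0.87 for Mcm5 (adjusted p 0.015), and with IL-4 in WT Mcm5 rose by 0.39 (SE 0.13, adjusted p 0.022, edgeR).

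Mcm7 did not pass the main test in any of the 4 comparisons with all their libraries. With no filter on low counts Mcm7 was called higher in KO M0 than in WT M0 (0.52, adjusted p 0.0019, edgeR) and higher with IL-4 in WT. It stood at 20.2, 30.9 and 21.7 CPM in WT M0, 40.3, 35.6 and 28.3 CPM in KO M0, 30.7, 27.5 and 28.8 CPM in WT M2, and 27.6, 32.1 and 31 CPM in KO M2. Libraries 1 and 3 of WT M0 were the lowest of the 12. Without library 2 of WT M0 it was higher in KO M0 by 0.74 (SE 0.147, adjusted p 0.022) and rose with IL-4 in WT by 0.47 (SE 0.097, adjusted p 0.00093, edgeR). Its gene holds Mir106b, Mir25 and Mir93 on the same strand, and 26% of the 50-base stretches of its longest coding transcript also occur in another gene, most of them in the copy Gm5487, which had 0 or 1 count in every library. Mcm10 stood at 8.5, 13.1 and 10.2 CPM in WT M0, 16.3, 16.3 and 14 CPM in KO M0, 14.6, 11.9 and 12.6 CPM in WT M2, and 10.8, 13.6 and 14 CPM in KO M2. Its KO M0 libraries were all above its WT M0 libraries, with a log2 fold change of 0.54 (SE 0.166, adjusted p 0.24), and 0.74 (adjusted p 0.043) without library 2 of WT M0. In that refit Mcm10 also rose with IL-4 in WT, by 0.47 (SE 0.15, adjusted p 0.018).

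The activators of the helicase were not called between genotypes. Over all libraries, Cdc45 and the 4 GINS subunits gave fitted changes of 0.24 to 0.50 between KO and WT in M0 and 0.02 to 0.24 in M2. Without library 2 of WT M0 the M0 change was 0.69 for Cdc45 and 0.42, 0.46, 0.30 and 0.24 for Gins1 to Gins4, again uncalled. With IL-4, 1 of the 5 was called. That was Gins3, at 11.9, 10.7 and 10.5 CPM in WT M0, 14.9, 14.3 and 11.8 CPM in KO M0, 13.8, 13 and 14.9 CPM in WT M2, and 12.5, 16 and 13.4 CPM in KO M2. All WT M2 libraries were above all WT M0 libraries, and the KO ranges overlapped. Gins3 rose in WT by 0.34 (SE 0.123, adjusted p 0.036, edgeR) and was at 0.03 in KO, with an interaction of -0.30 (SE 0.186, adjusted p 0.66). The call was lost without library 2 or 3 of WT M0 (adjusted p 0.061 and 0.1) and without library 1 or 3 of WT M2 (0.084 and 0.12). With all libraries kept it was also lost under DESeq2's Wald test (0.13), with library totals (0.061), in the joint fit of 12 libraries (0.053) and with the replicate block (0.064), so 3 of the 7 alternatives run with every library called it. The interaction was -0.29 (adjusted p 0.73) without library 2 of WT M0.

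In the clamp and its loader the members parted. Pcna (chr2:132091082-132095234 of GRCm39, minus strand), the sliding clamp, stood at 248, 209 and 243 CPM in WT M0, 294, 226 and 284 CPM in KO M0, 384, 395 and 370 CPM in WT M2, and 362, 379 and 353 CPM in KO M2. Every M2 library was above every M0 library, and library 2 was the lowest of its group in both M0 groups, unlike for the MCM genes. Pcna rose by 0.72 in WT (SE 0.0721, adjusted p 2.2e-06) and by 0.45 in KO (SE 0.0972, adjusted p 0.003, edgeR). The rise in WT was 0.65 (adjusted p 2.1e-07) without library 2 of WT M0. Of its transcript's 50-base stretches 31.8% also occur elsewhere, mostly in Pcna-ps2, which had 4 to 21 counts per library, so its value is uncertain by what the counting assigned to copies.

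Rfc5, a small subunit of the clamp loader, stood at 12.2, 20.5 and 14.1 CPM in WT M0, 20.7, 19.5 and 17.4 CPM in KO M0, 31.1, 36.4 and 33.6 CPM in WT M2, and 36.7, 32.5 and 35.2 CPM in KO M2. Its M2 libraries were all above its M0 libraries. Rfc5 rose by 1.11 on the log2 scale in WT, or 2.15-fold (SE 0.151, adjusted p 4.1e-05), and by 0.86 in KO, or 1.81-fold (SE 0.104, adjusted p 2.9e-05, edgeR). With library 2 of WT M0 left out, the rise in WT was 1.36 (SE 0.112, adjusted p 9.7e-08), and the difference of KO from WT in M0 went from 0.29 to 0.55 (adjusted p 0.096). The other subunits did not follow it.

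Rfc2 stood at 64.7, 51.5 and 63.7 CPM in WT M0, 65.7, 58.5 and 58.2 CPM in KO M0, 44.3, 41.7 and 46.9 CPM in WT M2, and 42.8, 49 and 45.9 CPM in KO M2, with every M2 library below every M0 library. It fell by 0.43 in WT (SE 0.0936, adjusted p 0.0019) and by 0.40 in KO (SE 0.0911, adjusted p 0.0038, edgeR). Rfc1, the large subunit, stood at 61.7, 65.4 and 55.9 CPM in WT M0, 44.9, 62.3 and 56.6 CPM in KO M0, 47.3, 39.9 and 44.5 CPM in WT M2, and 43.4, 47.2 and 53.4 CPM in KO M2. It fell in WT by 0.47 (SE 0.0884, adjusted p 0.00064, edgeR). In KO its libraries overlapped, with -0.19 (SE 0.123, adjusted p 0.27), and the interaction was 0.29 (SE 0.16, adjusted p 0.62). Leaving out library 2 of WT M0 gave falls in WT of 0.53 for Rfc2 (adjusted p 3e-05) and 0.42 for Rfc1 (adjusted p 0.00096, edgeR), with an interaction of 0.22 (adjusted p 0.77) for Rfc1. Rfc3, between 6.97 and 12.3 CPM, and Rfc4, between 3.05 and 5.05 CPM, did not pass.

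**Figure D5:**
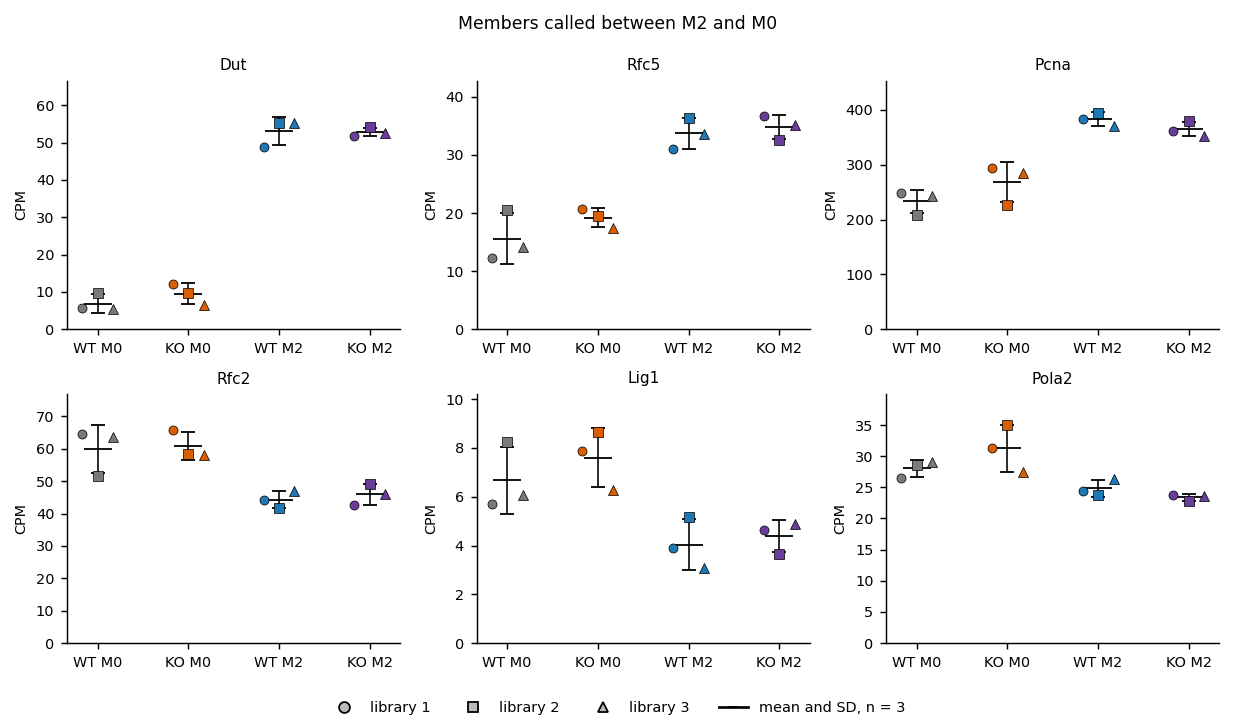
CPM (vertical axis, from 0) of 3 members that rose and 3 that fell with IL-4, in the 4 groups; points are libraries 1 to 3 and lines the mean and SD (n = 3). Dut, Rfc5 and Pcna stand higher in all 6 M2 libraries than in any M0 library, Rfc2 and Lig1 stand lower, and Pola2 is lower in both genotypes by library but called in KO only.

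Polymerase and primase genes fell or did not pass. Pola2, the accessory subunit of polymerase alpha, stood at 26.5, 28.6 and 29.1 CPM in WT M0, 31.3, 35 and 27.4 CPM in KO M0, 24.4, 23.8 and 26.4 CPM in WT M2, and 23.7, 22.8 and 23.6 CPM in KO M2. In each genotype the M2 libraries were all below the M0 libraries. Pola2 fell in KO by 0.42 (SE 0.109, adjusted p 0.0091, edgeR) and was at -0.17 in WT (SE 0.0889, adjusted p 0.13), with an interaction of -0.24 (SE 0.139, adjusted p 0.63). These last values were -0.16 (adjusted p 0.17) and -0.27 (adjusted p 0.62) without library 2 of WT M0.

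Pold1, the catalytic subunit of polymerase delta, stood at 7.87, 12.1 and 13 CPM in WT M0, 15, 12.5 and 11.4 CPM in KO M0, 10.6, 10.5 and 8.89 CPM in WT M2, and 8.44, 7.93 and 9.12 CPM in KO M2. The KO M2 libraries were all below the KO M0 libraries, and the WT ranges overlapped. It fell in KO by 0.61 (SE 0.155, adjusted p 0.0079, edgeR), in every fit with 1 library left out, and was at -0.14 in WT (adjusted p 0.54), or -0.08 (adjusted p 0.76) without library 2 of WT M0. Pole, the catalytic subunit of polymerase epsilon, had a wide spread in WT M0, at 4.57, 13.5 and 6.48 CPM, beside 12.6, 15.3 and 9.74 CPM in KO M0, 9.06, 7.57 and 6.18 CPM in WT M2, and 7.21, 7.83 and 10 CPM in KO M2. Its fall in KO of 0.59 (SE 0.193, adjusted p 0.032, edgeR) was not called without library 2 of KO M0 (0.11), library 1 of KO M2 (0.13) or library 2 of KO M2 (0.1), nor in the joint fit of 12 libraries (0.11). Without library 2 of WT M0, Pole was 1.18 higher in KO M0 than in WT M0 (SE 0.242, adjusted p 0.024), a 2.26-fold difference, against 0.60 (adjusted p 0.58) with it.

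Pola1, the catalytic subunit of polymerase alpha, ranged from 20.4 to 33.1 CPM and was not called. In M2 it stood at 21.2, 23.4 and 20.4 CPM in WT and 21, 24.2 and 31.5 CPM in KO, which overlapped, with a log2 fold change of 0.24 (SE 0.128, adjusted p 0.56). The primase subunits Prim1, between 5.56 and 10.1 CPM, and Prim2, between 14.3 and 19.1 CPM, were not called either. Pole2 was higher in every M2 library than in any M0 library of its genotype, with 0.68 in WT (SE 0.275, adjusted p 0.058) and 0.30 in KO (SE 0.204, adjusted p 0.29, edgeR). With every library kept, Pole2 was called higher in WT in the joint fit of 12 libraries, with the replicate block and with no filter on low counts. It was also called in WT when library 2 of WT M0 was left out, at 0.92 (SE 0.286, adjusted p 0.015).

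The enzymes that finish lagging-strand fragments went opposite ways in WT. Fen1, the flap endonuclease, stood at 55.3, 66 and 64.8 CPM in WT M0, 85.9, 71.7 and 74.5 CPM in KO M0, 74.8, 76.4 and 74.5 CPM in WT M2, and 75.4, 83.8 and 76.1 CPM in KO M2. The WT M0 libraries were the 3 lowest. Fen1 rose in WT by 0.28 (SE 0.078, adjusted p 0.0092, edgeR), which shrank to 0.21, inside the fold limit, without library 1 of WT M0, and to 0.24 with library totals. The rise was 0.33 (adjusted p 0.0023) without library 2 of WT M0. In KO it was at 0.02 (SE 0.0905), with an interaction of -0.25 (SE 0.119, adjusted p 0.56), and the M0 difference between genotypes was 0.32 (SE 0.101, adjusted p 0.27). Both stayed uncalled without library 2 of WT M0, at -0.31 (adjusted p 0.39) and 0.37 (adjusted p 0.16). Lig1, the ligase that seals the nick, stood at 5.71, 8.25 and 6.08 CPM in WT M0, 7.89, 8.64 and 6.26 CPM in KO M0, 3.88, 5.15 and 3.09 CPM in WT M2, and 4.65, 3.65 and 4.87 CPM in KO M2. All M2 libraries were below all M0 libraries. Lig1 fell by 0.71 in WT (SE 0.223, adjusted p 0.018) and by 0.80 in KO (SE 0.205, adjusted p 0.0086, edgeR). The WT call was lost without library 2 of WT M0 (-0.52, adjusted p 0.063), library 1 of WT M2 (0.061) or library 3 of WT M2 (0.081), and the KO call without library 2 of KO M2 (0.051). The single-strand binding proteins Rpa1, Rpa2 and Rpa3 were not called, with levels of 33.6 to 42.9, 10.6 to 19.1 and 4.47 to 7.45 CPM.

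Nucleotide supply held the largest change of the set. Dut (chr2:125089110-125100966 of GRCm39, plus strand), which breaks down dUTP so that uracil is kept out of DNA, stood at 5.58, 9.69 and 5.37 CPM in WT M0, 12.2, 9.69 and 6.56 CPM in KO M0, 48.7, 55.3 and 55.2 CPM in WT M2, and 51.8, 54.1 and 52.5 CPM in KO M2. The lowest M2 library was far above the highest M0 library. Dut rose 7.66-fold in WT (log2 2.94, SE 0.159, adjusted p 5.2e-09) and 5.59-fold in KO (log2 2.48, SE 0.158, adjusted p 7.6e-08, edgeR), with an interaction of -0.45 (adjusted p 0.64). Leaving out library 2 of WT M0, the rise in WT was 9.73-fold (log2 3.28, SE 0.12, adjusted p 1.2e-11) and the interaction -0.81 (SE 0.24, adjusted p 0.18). The difference of KO from WT in M0 was 0.45 (SE 0.274, adjusted p 0.66) over all libraries and 0.80 (SE 0.265, adjusted p 0.22) in that refit. Between genotypes in M2 it was at 0.00 (SE 0.0737). No 50-base stretch of its transcript occurs in another gene.

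The other nucleotide enzymes did not share that rise. Rrm2, the cell-cycle-regulated subunit of ribonucleotide reductase, stood at 7.49, 10.7 and 4.36 CPM in WT M0, 11.9, 14.5 and 8.55 CPM in KO M0, 11.1, 11.6 and 9.39 CPM in WT M2, and 10.4, 11.8 and 14 CPM in KO M2. The groups overlapped, and it was at 0.52 in WT with IL-4 (SE 0.244, adjusted p 0.1) and 0.05 in KO. Without library 2 of WT M0 it rose in WT by 0.89 (adjusted p 0.0022, edgeR). With every library kept, that rise was called with the replicate block and with no filter on low counts. Tk1, the thymidine kinase of the salvage pathway, stood at 5.71, 14.7 and 5.06 CPM in WT M0, 15.9, 18.5 and 11.8 CPM in KO M0, 9.06, 11.6 and 8.4 CPM in WT M2, and 10, 11.1 and 10.4 CPM in KO M2. Library 2 of WT M0 stood with KO M0 and the other 2 WT M0 libraries were the lowest of the 12. Tk1 fell in KO by 0.55 (SE 0.17, adjusted p 0.023, edgeR), a call lost without library 2 of KO M0 (0.079), library 1 of KO M2 (0.085) or library 3 of KO M2 (0.051), and in the joint fit of 12 libraries (0.13). Its M0 difference between genotypes was 0.84 (SE 0.333, adjusted p 0.4) and became 1.53 (SE 0.226, adjusted p 0.0037), or 2.89-fold, without library 2 of WT M0, where Tk1 also rose with IL-4 in WT by 0.87 (SE 0.189, adjusted p 0.0015). Rrm1, between 41.5 and 72.1 CPM, and the thymidylate synthase Tyms, between 6.73 and 13.6 CPM, were not called by the main test over all libraries. With no filter on low counts Rrm1, Rrm2 and Tk1 were called higher in KO M0.

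Of the chromatin factors, Uhrf1 differed most. This protein, which reads hemimethylated DNA behind the fork, stood at 15.4, 27.6 and 15.9 CPM in WT M0, 37, 35.2 and 25.7 CPM in KO M0, 26.5, 24.9 and 21.1 CPM in WT M2, and 22.4, 24.7 and 29.7 CPM in KO M2. Library 2 of WT M0 overlapped KO M0 by 1 library. The log2 fold change in M0 was 0.72 (SE 0.21, adjusted p 0.22, edgeR) and became 1.07 (SE 0.161, adjusted p 0.004) without that library, and the interaction was -0.64 (SE 0.271, adjusted p 0.48) and became -0.99 (SE 0.214, adjusted p 0.053). In the same refit Uhrf1 rose with IL-4 in WT by 0.64 (SE 0.118, adjusted p 0.0004). Slbp, which binds histone messages, stood at 42.3, 42.3 and 40 CPM in WT M0 and 56.9, 47.1 and 46.9 CPM in KO M0, without overlap. In M2 it stood at 39.3, 45 and 41.4 CPM in WT and 46.7, 45.6 and 44.4 CPM in KO, which overlapped, and neither comparison was called (adjusted p 0.34 and 0.62, and 0.33 in M0 without library 2 of WT M0). The histone chaperone subunits Chaf1a, between 12.4 and 24.8 CPM, and Chaf1b, between 13.1 and 16.6 CPM, were not called over all libraries.

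Among the G1/S regulators only Ccne1 was called over all libraries. Cyclin E1 stood at 3.93, 4.64 and 3.55 CPM in WT M0, 5.78, 6.36 and 3.58 CPM in KO M0, 6.59, 5.57 and 7.17 CPM in WT M2, and 5.5, 4.59 and 6.5 CPM in KO M2. The WT M2 libraries were all above the WT M0 libraries, and the KO ranges overlapped. Ccne1 rose in WT by 0.67 (SE 0.189, adjusted p 0.01, edgeR), in every fit with 1 library left out, and was at 0.07 in KO (SE 0.243), with an interaction of -0.60 (SE 0.313, adjusted p 0.6). These were 0.79 (adjusted p 0.0052) in WT and -0.73 (adjusted p 0.5) for the interaction without library 2 of WT M0. Ccne2, its paralog, stood at 2.92, 7.42 and 2.94 CPM in WT M0, 9.22, 9.78 and 5.07 CPM in KO M0, 6.59, 5.26 and 5.93 CPM in WT M2, and 5.01, 4.7 and 7.62 CPM in KO M2. Libraries 1 and 3 of WT M0 were the lowest of the 12. Its M0 difference was 0.84 (SE 0.359, adjusted p 0.45) and became 1.46 (SE 0.316, adjusted p 0.032) without library 2 of WT M0, where Ccne2 also rose with IL-4 in WT by 1.01 (SE 0.216, adjusted p 0.0012).

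E2f1 and E2f2 are activators of S-phase genes. E2f1 stood at 17.8, 25 and 21.2 CPM in WT M0, 26.1, 27.3 and 23.9 CPM in KO M0, 24.9, 23.8 and 23.3 CPM in WT M2, and 21.6, 23 and 23.1 CPM in KO M2. E2f2 stood at 6.47, 10.4 and 5.67 CPM in WT M0, 11.9, 12.9 and 9.54 CPM in KO M0, 7.06, 6.2 and 7.54 CPM in WT M2, and 8.44, 5.85 and 10 CPM in KO M2. For both, library 2 of WT M0 lay within the KO M0 range. The E2f1 interaction was -0.35 (SE 0.157, adjusted p 0.52, edgeR), and its log2 fold change between genotypes in M0 was 0.27 (SE 0.13, adjusted p 0.54). With library 2 of WT M0 left out they were -0.50 (SE 0.146, adjusted p 0.17) and 0.41 (SE 0.13, adjusted p 0.19), and E2f1 rose with IL-4 in WT by 0.30 (SE 0.106, adjusted p 0.029). E2f2 was at 0.60 in M0 between genotypes (SE 0.228, adjusted p 0.38) and at 0.93 (SE 0.208, adjusted p 0.038) without library 2 of WT M0.

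The rest of the cell cycle was read beside these genes. Of the 50 further replication genes, 5 rose and 9 fell with IL-4 in WT, and 4 rose and 11 fell in KO, beside 22.1% of all genes that rose and 20.9% that fell in WT, and 17.4% and 16.4% in KO. Dna2, a nuclease of long flaps, rose by 1.90 in WT (adjusted p 8e-07) and by 1.10 in KO (adjusted p 0.0021), and Ccna2, the cyclin of S phase and G2, rose in WT by 1.48 (adjusted p 2.3e-05, edgeR). Of the 30 G2 and mitosis genes, 22 rose and 0 fell in WT, and 17 rose and 0 fell in KO, with medians of 0.87 and 0.56, while no MCM gene was called higher in either genotype by the main test over all libraries. Mcm7 was called higher in WT by the fit without a filter on low counts, and Mcm5, Mcm7 and Mcm10 were without library 2 of WT M0, as given above. Kif20a, a kinesin of cytokinesis, rose by 2.42 in WT (adjusted p 4.1e-06) and by 1.80 in KO (adjusted p 1.5e-05). Of the 24 RB and E2F partners, 3 rose and 5 fell in WT, and 0 rose and 7 fell in KO. The D cyclins, which act upstream of cyclin E, fell in both genotypes, Ccnd1 by 1.86 in WT (adjusted p 4.3e-08) and by 1.89 in KO (adjusted p 2.9e-07, edgeR). No gene of these 3 lists passed the interaction test. Leaving out library 2 of WT M0, 26 of the mitosis genes, 8 of the further replication genes and 6 of the partners rose in WT. In the same order 0, 6 and 5 fell, beside 22.3% of all genes that rose and 20.4% that fell. In that setting 1 gene of each list passed the interaction test, each with a more negative response in KO. Of 15059 genes, 0.432% passed there.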

How the data were processed

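Read counts per gene of 12 libraries (3 for each of 4 groups) were used as deposited. Per the study's methods, total RNA was depleted of ribosomal RNA and sequenced as stranded paired ends, and the authors trimmed reads with Trimmomatic, removed duplicates with Picard, aligned with STAR to GRCm39 and counted genes with featureCounts. Removing duplicates can lower the counts of abundant genes. Each library stood in 2 of 4 count tables with identical values, and columns carry a group and a number from 1 to 3 that the labels do not tie to a sample. The authors' tables of normalized counts were not used.

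Symbols came from GENCODE vM39, which matched 56323 of 56941 identifiers. Counts were tested with edgeR 4.0.16 in R 4.3.3 (quasi-likelihood, TMM, filterByExpr by group, Benjamini-Hochberg adjustment over all genes tested, called at adjusted p below 0.05 and a change of more than 1.2-fold), each comparison fitted on its own 6 libraries and the interaction on all 12. SE is the size of the log2 fold change divided by the square root of F. CPM used TMM library sizes over all 12 libraries. Shared 50-base stretches were counted between GENCODE transcripts, and promoter windows are RefSeq's, with no entry for 8 members (Mcm4, Gins1, Gins2, Gins4, Rfc2, Prim2, Pole and Ccne2). Genes given by library were the helicase, Pcna, Cdc6, Rrm2, Ccne1, Ccne2, E2f1 and E2f2, up to 10 called members with the smallest p per comparison (5 members where fewer than 5 were called) and the 5 with the smallest interaction p. Tk1 and Pole were given by library outside this rule. Both were called with IL-4 in KO, but not among the 10 with the smallest p. Members, lists and tests were chosen with earlier results of these data known. The scripts were tested on simulated data. Alternatives were DESeq2 1.42.0, its size factors, library totals, other count filters, a joint fit to every library, a block for the column number, a log2 fold limit of 1, and leaving out each library.

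The labels do not say whether library numbers pair the samples. Correlations of same-numbered deviations ran from -0.621 to 0.609 over the comparisons, and were 0.219, 0.609 and 0.0475 between genotypes in M0. With the number as a block, 2.02% of genes were called between genotypes in M0 and 2.07% in M2. Without the block it was 0.461% and 0.98%, so pairing is left undecided. Replicate pairs differed by more than sampling noise (chi-square per degree of freedom of 1.8 to 8.96).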

Additional observations from a re-analysis of the deposited data

How the results depend on the processing

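Members called between KO and WT in M0 numbered 0, and numbered 2 with DESeq2's Wald test, 13 with no filter on low counts, 1 with all 12 libraries in one fit, 2 with the library number as a replicate block, and 0 to 13 when a library was left out, where 13 came only without library 2 of WT M0 (0 without any other). Of all genes tested, 1.55% were called under DESeq2, 2.03% with no filter, 1.67% in the joint fit and 2.02% with the block. Without library 2 of WT M0 it was 2.1%. Fits without a filter tested 26165 to 28668 genes. The count in M2 was 0 under every alternative run. Between M2 and M0 in WT the count of 9 became 2 with a log2 fold limit of 1 and ran from 7 to 18 with a library left out, with 18 without library 2 of WT M0. In KO the count of 14 became 1 with that limit and ran from 9 to 19, with 9 without library 1 or 2 of KO M2. The interaction count of 0 became 2 with no filter (1.19% of all genes). It ran from 0 to 1 with a library left out, where 1 was without library 2 of WT M0 (0.432% of all genes). The cause was not tested. Of all 47 members, 5 changed sign in some fit with a library left out between genotypes in M0, 20 between genotypes in M2, 17 with IL-4 in WT, 11 with IL-4 in KO and 8 in the interaction, and 0 of these were called. Some genes given by library above, such as Mcm10, Uhrf1 and Dut between genotypes in M2, were among these and have no range here. Ranges of the log2 fold change are given for those that the naming rule picked in the same comparison. Between genotypes in M2 they were Mcm2 (-0.088 to 0.130), Mcm4 (-0.072 to 0.160) and Ccne2 (-0.280 to 0.100). With IL-4 in WT they were Mcm2 (-0.239 to 0.060), Mcm3 (-0.247 to 0.069), Mcm4 (-0.241 to 0.179), Mcm5 (-0.047 to 0.393), Cdc6 (-0.281 to 0.163) and E2f2 (-0.308 to 0.199), and with IL-4 in KO Rrm2 (-0.152 to 0.237) and Ccne1 (-0.160 to 0.237). The other alternatives moved no count by more than 1.5 times. With 3 libraries a group, small changes of genes at a few CPM could not be told from library spread.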
